A study of Mus musculus with 79 samples.

Results

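RORA MKO muscle was compared with RORA CTRL muscle at zeitgeber time 16 (ZT16, hours after lights on), and that effect was set against the same comparison at ZT0, ZT4, ZT8, ZT12 and ZT20. The members are the 3 RORA MKO ZT16 and 3 RORA CTRL ZT16 libraries, 6 of the 79 in the data set, and all 14253 genes of the authors' deposited ZT16 table. The other 5 ZT hold a further 30 RORA libraries, 3 RORA MKO and 3 RORA CTRL at each. RORA MKO is a muscle-specific knockout of the nuclear receptor RORα, and RORA CTRL mice are given as wild type in the labels' sample descriptions. The rest of the data set is the PER2 MKO and its controls. Each library comes from its own mouse by the study's design text, so time of day cannot be told apart from the mice taken at that time. What drives the deletion, the strain, age and sex of the mice and which muscle was taken are not stated in the sources at hand. Since the controls are given as wild type, other differences between RORA MKO and RORA CTRL mice cannot be told apart from the loss of RORα.

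RORα is a transcription factor that binds ROR response elements, short DNA sites it shares with the REV-ERB repressors, and through them drives the clock gene Arntl (BMAL1). In skeletal muscle it is known for roles in lipid handling and in daily timing of metabolism. ZT16 normally falls in the dark phase, when mice are active and feed.

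The tables hold comparisons made by the authors, so the measured quantity throughout is a log2 fold change of RORA MKO over RORA CTRL with its deposited error, and single libraries were not analysed here. Their depth is unknown. In bulk muscle, fewer cells of a type and less RNA per cell cannot be told apart. The tissue label was checked on 12 fibre genes, all of them measured. In the authors' deposited tables, Myh4, the fast myosin heavy chain, had a mean normalized count of 792710 over the RORA libraries, the skeletal actin Acta1 261128 and muscle creatine kinase Ckm 209483.

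Fewer genes were called at ZT16 than at the other times, and the median deposited effect size over all genes was smaller. By the authors' deposited table, 2947 genes were called at ZT16 at an adjusted p under 0.05 (20.7%), of which 1484 rose (10.4%) and 1463 fell (10.3%). At the other times the authors' deposited tables called 4012 genes at ZT0 (28.1%), 4134 at ZT4 (29%), 3956 at ZT8 (27.8%), 3147 at ZT12 (22.1%) and 4591 at ZT20 (32.2%). The median size of the log2 fold change over all genes was 0.057 at ZT16, against 0.0706, 0.0833, 0.0829, 0.063 and 0.0883 at ZT0, ZT4, ZT8, ZT12 and ZT20 in the authors' deposited tables. The median deposited error was 0.0739 at ZT16 and between 0.072 and 0.0822 at the others. At ZT16, 176 called genes had a change of at least 1 on the log2 scale in the authors' deposited table, against 189 to 249 elsewhere. Among called genes alone the median size was 0.23 at ZT16. It was 0.225 (ZT0), 0.248 (ZT4), 0.243 (ZT8), 0.232 (ZT12) and 0.225 (ZT20) in the authors' deposited tables. The slope of the ZT16 values on the mean of the other 5 ZT, across genes, was 0.898. That of each other ZT on its own other 5 lay between 0.937 and 1.06. Divided by its error, the deposited log2 fold change was 0.721 times the z of the p at ZT16 (median), as with shrunken fold changes. This ratio was lowest at ZT16, against 0.741 to 0.841 elsewhere. The part of shrinkage in the smaller sizes and slope was not tested.

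**Figure D1:**
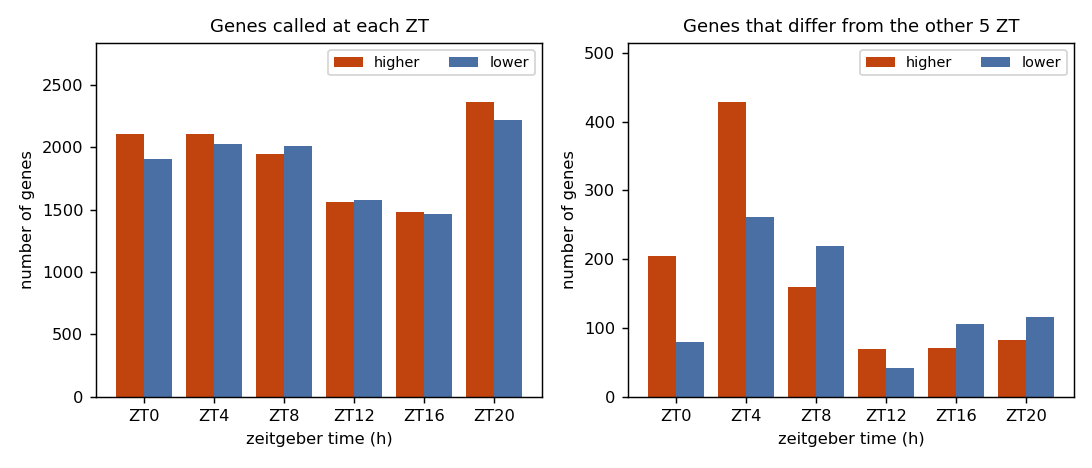
Number of genes (vertical axis) per zeitgeber time (horizontal axis, h) that were higher or lower in RORA MKO than in RORA CTRL (left, authors' deposited adjusted p under 0.05), and number whose effect at that ZT was higher or lower than at the other 5 ZT (right). ZT16 has the fewest calls on the left, 1484 and 1463, and 71 higher and 106 lower genes on the right.

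Much of what changed at ZT16 also changed at the other times. Of the 2947 calls, 1231 were called in the same direction at all 6 ZT (563 up, 668 down), and 266 were called at ZT16 and at no other ZT (148 up, 118 down). Calls at a single ZT numbered 488 at ZT0, 733 at ZT4, 537 at ZT8, 255 at ZT12 and 785 at ZT20. A further 160 genes were called in 1 direction at all other 5 ZT but not at ZT16. The same count was 160 for ZT4 and lay between 34 and 114 for ZT0, ZT8, ZT12 and ZT20. Across genes, which are not independent replicates, the ZT16 log2 fold change had a Pearson's r of 0.893 with the mean of the other 5 ZT and of 0.783 to 0.852 with single ZT.

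The targeted transcript was low at ZT16, within the range of the other times. Rora stood at -1.71 (error 0.06, adjusted p 3.14e-156) at ZT16 in the authors' deposited table. The other 5 ZT ranged between -1.96 and -1.51 in the authors' deposited tables, and the ZT16 difference from their mean was 0.08 ± 0.07 (adjusted p 0.963). Among called genes whose mean normalized count reached 50 and whose name is not a predicted one, those with the largest falls at ZT16 were likewise low at every ZT. They were the serine protease gene Htra4 (-4.36), the secreted phospholipase gene Pla2g7 (-3.91) and the hyaluronan scavenger receptor gene Stab2 (-3.20) in the authors' deposited ZT16 table. Next in the authors' deposited table came Lingo3 (-2.62), Ostn (-2.37), the gene of the myokine musclin, Arntl (-2.36), the adaptor gene Shc2 (-2.35), Fgfbp1 (-2.31), Mss51 (-2.15) and Ripor2 (-2.03). Of these 10, Lingo3 and Arntl differed from the other 5 ZT in the test described next.

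Under the same limits, the largest rise at ZT16 was that of Nr4a3, an orphan nuclear receptor gene induced by exercise, at 2.47 in the authors' deposited table. It was followed there by the antisense transcript Srrm4os (2.25), the immunoglobulin gene Ighm (2.15), the retinoic acid hydroxylase gene Cyp26b1 (1.85), the mitotic kinase gene Aurka (1.68) and Tph1 (1.64), an enzyme of serotonin synthesis. The authors' deposited table continued with Abca4 (1.63), Sh3bp2 (1.61), Kif26b (1.54) and Stbd1 (1.47), which encodes a glycogen-binding protein. Nr4a3 is the member of this group that differed from the other 5 ZT. Cyp26b1 had log2 fold changes of 0.02 (ZT0), 0.51 (ZT4), 0.01 (ZT8), -0.0027 (ZT12), 1.85 (ZT16), 0.31 (ZT20) in the authors' deposited tables, so ZT16 stood above the rest. Its ZT16 error was 0.96, however, and the difference of 1.82 did not pass (adjusted p 0.594). The counting of Srrm4os is uncertain because use of strand is not stated, and that of Ighm because immunoglobulin genes share sequence.

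What set ZT16 apart was tested gene by gene as the ZT16 log2 fold change minus the inverse-variance weighted mean of the other 5 ZT, with a two-sided normal p adjusted by Benjamini-Hochberg over all 14253 genes. The difference passed for 177 genes (1.24%), 71 higher at ZT16 (0.498%) and 106 lower (0.744%). The same test passed for 284 genes at ZT0 (1.99%), 691 at ZT4 (4.85%), 379 at ZT8 (2.66%), 112 at ZT12 (0.786%) and 199 at ZT20 (1.4%). These 6 contrasts draw on the same tables. At ZT16 the effect had the same sign as the mean of the others and was smaller for 83 of the 177 genes. It had the same sign and was larger for 43 genes, and the opposite sign for 51. Of the 106 lower genes, 86 had a positive mean at the other 5 ZT, that is, a higher level in RORA MKO than in RORA CTRL there. For 165 of the 177 the ZT16 value lay outside the range of the other 5. Limma on the 6 values per gene, with ZT16 set against the other 5, called 0 genes, with 473 genes under an unadjusted p of 0.05 (3.32%). The z values of the deposited p called 304 genes by the same contrast, 157 of them among the 177. Against ZT12 and ZT20 alone, the neighbouring times, 56 genes passed, 37 of them among the 177. The naming rule took 46 of the 177. Of these, 12 also passed against ZT12 and ZT20 alone. They were Fbxo32, Trim63, Klhl38, Eda2r, Sesn1, Arntl, Rrad, Tnfrsf19, Zfp503, Gse1, Mybph and the transcript ENSMUSG00000119584. That test uses the weighted mean of ZT12 and ZT20, so a gene can pass without standing apart from each. In the authors' deposited tables Arntl at ZT16 (-2.36) lay between ZT12 (-2.65) and ZT20 (-1.26). Mybph at ZT16 (1.25) was nearer to ZT20 (1.05) than to ZT12 (0.01) there. So was Eda2r, at -0.61 at ZT16, -0.44 at ZT20 and -0.0047 at ZT12. The z values lost 8, namely Lingo3, Efr3b, Plin5, Barx2, Casq2, Gamt, Fkbp5 and Mybph, with adjusted p between 0.0574 and 0.371.

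**Figure D2:**
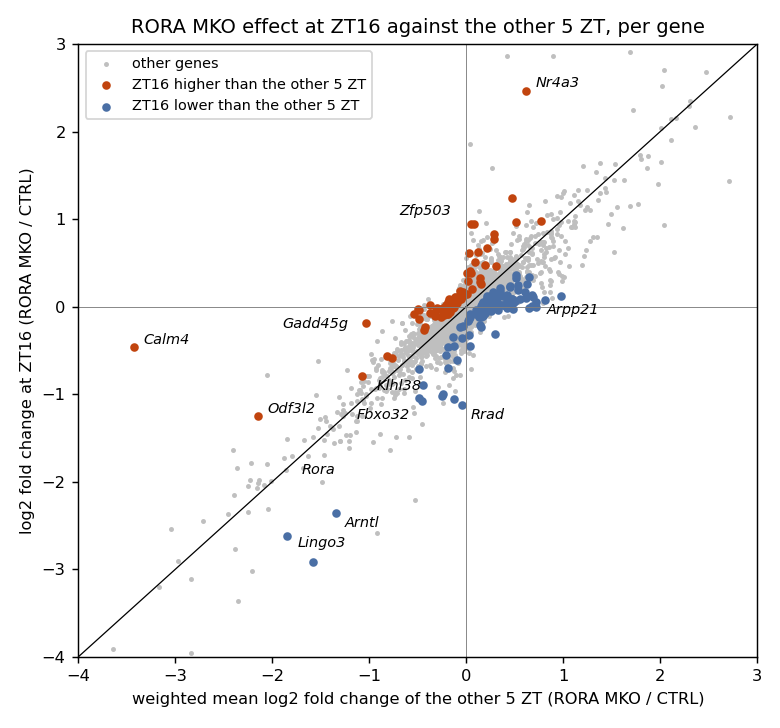
Log2 fold change of RORA MKO over RORA CTRL at ZT16 (vertical axis) against the weighted mean of the other 5 ZT (horizontal axis), 1 point per gene, with genes that differed at ZT16 coloured and the line of equality in black. 14 genes lie outside the plotted range, 0 of them among the 177. Nr4a3, at 2.47 on the vertical axis, stands above the line, and Fbxo32, Klhl38 and Rrad, between -1.12 and -1.02, stand below it.

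Among clock genes, Arntl alone differed at ZT16. Its log2 fold changes were -0.80 (ZT0), -1.21 (ZT4), -2.37 (ZT8), -2.65 (ZT12), -2.36 (ZT16), -1.26 (ZT20) in the authors' deposited tables. The knockout effect was thus strongest at ZT8, ZT12 and ZT16 and weaker at ZT0, ZT4 and ZT20. The ZT16 difference was -1.01 ± 0.14 (error, adjusted p 1.22e-08), though ZT16 lay within the range of the other 5. Of the 5 clock activators measured, 1 rose and 2 fell at ZT16, of the 11 repressors 0 rose and 6 fell, and of the 6 output factors 2 rose and 1 fell, beside 10.4% up and 10.3% down of all genes. Of the repressor genes that fell, Bhlhe41 (DEC2) stood at -1.18, the cryptochrome genes Cry1 and Cry2 at -0.51 and -0.30, and the REV-ERB genes Nr1d1 and Nr1d2 at -0.99 and -0.18 in the authors' deposited ZT16 table. Their ZT16 differences ran between -0.35 for Nr1d1 (adjusted p 0.109) and 0.21 for Cry1 (adjusted p 0.293), and none of the 5 passed. The 5 repressor genes not called at ZT16, the Period genes among them, lay between -0.04 and 0.10 in the authors' deposited ZT16 table. The output factor gene Hlf was at -0.79 and Nfil3 at -0.51 in the authors' deposited ZT16 table. Nr1d1 overlaps Thra on the other strand.

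The promoter of Arntl is shown because Arntl is a textbook target of RORα and its loss was among the largest at ZT16. Sequences here are RefSeq promoters of GRCm38.p6, a build other than those named in the submitters' notes, from 250 bases before to 50 bases after each gene's start, and capitals mark the motif. The interval is chr7:113207261-113207560, plus strand, and TAGGTCA, the core of a ROR response element, starts at base 31 counted from 1 at the gene's start.
Arntl: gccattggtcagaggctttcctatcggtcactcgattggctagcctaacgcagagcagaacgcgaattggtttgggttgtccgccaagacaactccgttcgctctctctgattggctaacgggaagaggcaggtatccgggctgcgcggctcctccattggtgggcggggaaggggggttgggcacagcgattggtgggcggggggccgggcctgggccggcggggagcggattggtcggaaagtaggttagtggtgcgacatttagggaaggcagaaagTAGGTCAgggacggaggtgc
Of the 7 motifs searched on both strands, TAGGTCA was found in 2.26% of the 10580 promoters matched to genes of the table. It was found in 3.66% of the 82 promoters of genes lower at ZT16 and 1.59% of the 63 promoters of genes higher at ZT16. AGGTCA, the nuclear receptor half-site contained in it, was found in 25.6%, 11.1% and 15% of the lower, higher and all promoters, in that order. These shares are descriptions, and a match is not a binding site.

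Fbxo32 (atrogin-1) and Trim63 (MuRF1), which encode the muscle E3 ubiquitin ligases that FOXO transcription factors induce in wasting and fasting, had their lowest values at ZT16. Fbxo32 had log2 fold changes of -0.58 (ZT0), -0.35 (ZT4), -0.20 (ZT8), -0.37 (ZT12), -1.08 (ZT16), -0.70 (ZT20) in the authors' deposited tables. It was low at every ZT and lowest at ZT16, with a difference of -0.62 ± 0.07 (adjusted p 9.91e-15), the smallest p of all genes. Trim63 had log2 fold changes of -0.04 (ZT0), 0.12 (ZT4), 0.10 (ZT8), 0.19 (ZT12), -0.32 (ZT16), -0.18 (ZT20) in the authors' deposited tables. RORA MKO was called higher at ZT4, ZT8 and ZT12 and lower at ZT16 and ZT20, and its ZT16 difference was -0.35 ± 0.04 (adjusted p 5.12e-12). Eda2r, the ectodysplasin receptor linked to muscle wasting, had log2 fold changes of 0.07 (ZT0), 0.08 (ZT4), -0.51 (ZT8), -0.0047 (ZT12), -0.61 (ZT16), -0.44 (ZT20) in the authors' deposited tables. Its lower values were at ZT8, ZT16 and ZT20 (difference -0.51 ± 0.11, adjusted p 0.00108). Sesn1, a stress-induced inhibitor of mTORC1, was raised at every ZT and least at ZT16, at 0.25 in the authors' deposited table, against 0.41 to 0.66 elsewhere (difference -0.28, adjusted p 0.00914).

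Klhl38, a muscle kelch gene that neighbours Fbxo32 in the genome, was likewise lowest at ZT16. Its log2 fold changes were -0.35 (ZT0), -0.30 (ZT4), -0.04 (ZT8), -0.25 (ZT12), -1.02 (ZT16), -0.48 (ZT20) in the authors' deposited tables, with a difference of -0.76 ± 0.13 (adjusted p 3.42e-06). All 5 of these genes also passed against the weighted mean of ZT12 and ZT20. The differences were -0.52 for Fbxo32 (adjusted p 3.34e-07), -0.30 for Trim63 (adjusted p 1.52e-06), -0.65 for Klhl38, -0.44 for Eda2r and -0.37 for Sesn1. For Eda2r, ZT16 (-0.61, error 0.10) was nearer to ZT20 (-0.44, error 0.09) than to ZT12 (-0.0047) in the authors' deposited tables. The wider list of atrogenes and FOXO targets moved in both directions. Of its 32 measured genes, 9 rose and 11 fell at ZT16, beside 10.4% and 10.3% of all genes. In the difference 4 were lower and 0 higher, beside 0.744% and 0.498% of all genes. Some other ubiquitin ligase genes of the list were lowest at other times, as Fbxo30 at ZT20 (-0.16, against -0.06 at ZT16) and Nedd4 at ZT8 (-0.22, against -0.09) in the authors' deposited tables. The list's median log2 fold change was -0.04 at ZT16 in the authors' deposited table, against 0.0019 over all genes. It was close to that at ZT8 (-0.037) and ZT20 (-0.038) in the authors' deposited tables. At ZT0, ZT4 and ZT12 it was -0.027, 0.019 and 0.03.

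**Figure D3:**
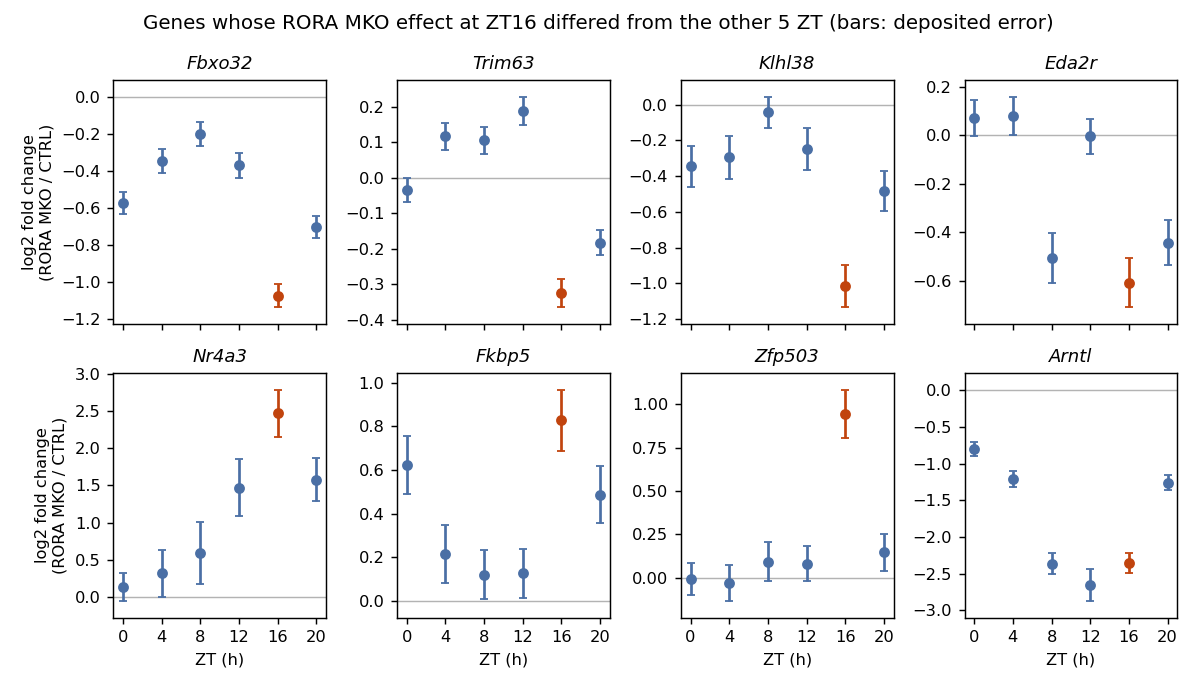
Log2 fold change of RORA MKO over RORA CTRL (vertical axis, own range per panel) by zeitgeber time (horizontal axis, h) for 8 genes that differed at ZT16 (points, authors' deposited values; bars, deposited error; ZT16 in orange). Fbxo32, Trim63, Klhl38 and Eda2r have their lowest point at ZT16, Nr4a3, Fkbp5 and Zfp503 their highest, and Arntl has similar low points at ZT8, ZT12 and ZT16.

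The promoters of Trim63 and Eda2r are shown because both genes were lower at ZT16 and both promoters hold GTAAACA, the forkhead site bound by FOXO factors, which is printed here as its reverse complement in capitals because it lies on the opposite strand. The intervals are chr4:134314870-134315169 on the plus strand for Trim63, with the match starting at base -194, and chrX:97377160-97377459 on the minus strand for Eda2r, with the match starting at base -125.
Trim63: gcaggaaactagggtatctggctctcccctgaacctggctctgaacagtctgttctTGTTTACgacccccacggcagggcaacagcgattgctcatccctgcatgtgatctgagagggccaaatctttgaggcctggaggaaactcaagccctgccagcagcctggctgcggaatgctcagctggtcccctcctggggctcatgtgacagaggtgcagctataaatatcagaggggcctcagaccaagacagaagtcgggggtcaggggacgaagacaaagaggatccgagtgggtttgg
Eda2r: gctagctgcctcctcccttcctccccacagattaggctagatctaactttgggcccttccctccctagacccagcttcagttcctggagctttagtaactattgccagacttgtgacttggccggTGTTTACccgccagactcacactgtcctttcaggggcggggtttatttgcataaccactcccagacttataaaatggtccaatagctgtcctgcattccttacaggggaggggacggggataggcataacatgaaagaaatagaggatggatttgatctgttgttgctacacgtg
GTAAACA was found in 7.32% of the promoters of lower genes, 6.35% of those of higher genes and 3.17% of all, and in 4 of the 26 promoters matched from the atrogene list. CACGTG, the E-box of clock activators, was found in 18.3%, 7.94% and 11.7% of the lower, higher and all promoters. The remaining motifs had shares of 8.54%, 4.76% and 5.38% (ACANNNTGT, spaced glucocorticoid receptor half-sites), 3.66%, 1.59% and 1.82% (TTANGTAA, the D-box) and 3.66%, 6.35% and 3.43% (TGACGTCA, the cAMP response element) in the same order.

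Several other muscle genes were lower at ZT16. Rrad, a small GTPase that inhibits calcium channels, had log2 fold changes of 0.39 (ZT0), -0.02 (ZT4), -0.21 (ZT8), -0.04 (ZT12), -1.12 (ZT16), -0.32 (ZT20) in the authors' deposited tables, so it was called higher at ZT0 and lower at ZT16 (difference -1.08 ± 0.23, adjusted p 0.00109). Dach2, a transcriptional repressor in the response of muscle to nerve activity, stood at -1.05 at ZT16 in the authors' deposited table, against -0.65 to 0.30 at the other ZT (difference -0.92, adjusted p 0.00655). Lingo3 stood at -2.62, against -2.31 to -1.38, and Tmem100 at -1.04, against -0.84 to -0.21, in the authors' deposited tables, each below its other 5 values. Efr3b, a membrane anchor of phosphatidylinositol kinase, was at -0.70, against -0.24 to -0.11 in the authors' deposited tables (difference -0.52, adjusted p 0.0236).

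A further set was raised at other times and closer to 0, or below it, at ZT16. Arpp21, a cAMP-regulated phosphoprotein, had log2 fold changes of 0.93 (ZT0), 0.73 (ZT4), 0.89 (ZT8), 0.47 (ZT12), -0.01 (ZT16), 0.50 (ZT20) in the authors' deposited tables, called at every ZT but ZT16 (difference -0.73 ± 0.10, adjusted p 1.27e-08). The semaphorin receptor gene Plxna4 was at 0.14 at ZT16 in the authors' deposited table, against 0.39 to 0.88 elsewhere, and Barx2, a homeobox gene of muscle precursors, at 0.09, against 0.21 to 1.09. The receptor gene Tnfrsf19 was called with both signs in the authors' deposited tables, at -0.31 at ZT16, against 0.08 to 0.59 elsewhere. Tbc1d1, a Rab regulator of glucose transporter traffic, stood at 0.09 at ZT16 in the authors' deposited table, against 0.28 to 0.62 elsewhere (difference -0.38 ± 0.08, adjusted p 0.000434). The slow and cardiac calsequestrin gene Casq2 was at 0.05, against 0.18 to 1.12, and the slow myosin-binding protein gene Mybpc1 at 0.19, against 0.35 to 0.86, in the authors' deposited tables. Against ZT12 and ZT20 alone, Rrad, Tnfrsf19 and Lingo3 had adjusted p of 0.0136, 0.0302 and 0.649, and Arpp21, Plxna4, Barx2, Casq2, Mybpc1 and Tbc1d1 between 0.055 and 0.999655.

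Most genes of fatty acid oxidation were raised in RORA MKO at ZT0, ZT4 and ZT8, and few at ZT12 and ZT16. Their median log2 fold change over 22 genes was 0.23 (ZT0), 0.13 (ZT4), 0.2 (ZT8), 0.03 (ZT12), -0.03 (ZT16), 0.07 (ZT20) in the authors' deposited tables, while the median over all genes was at most 0.0079 in size at every ZT. At ZT16, 2 members rose (Crat, Eci1) and 4 fell, beside 10.4% and 10.3% of all genes, and ZT12 was close to it, with 2 up and 3 down, beside 11% and 11.1%. At ZT0 17 were up and 1 down, where 14.8% and 13.4% of all genes were called, at ZT4 12 and 4 (14.8% and 14.2%), at ZT8 15 and 0 (13.7% and 14.1%) and at ZT20 9 and 3 (16.6% and 15.6%). In the difference 9 of 22 were lower and 0 higher, beside 0.744% and 0.498% of all genes, and ZT16 was the lowest of the 6 ZT for 18 members, beside 14.9% of all genes, and the highest for 0, beside 15.1%. The 4 that fell at ZT16 in the authors' deposited table were Acsl1 (-0.46), which activates long-chain fatty acids, Cpt1b (-0.40), the carnitine palmitoyltransferase of the mitochondrial outer membrane, Acadm (-0.32), the medium-chain dehydrogenase, and Acacb (-0.16), whose product malonyl-CoA inhibits Cpt1b. Cpt1b and Acadm did not pass in the difference, at -0.26 (adjusted p 0.63) and -0.19 (adjusted p 0.122).

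The enzymes of the oxidation spiral made up most of the 9. Acadl, the long-chain dehydrogenase, had log2 fold changes of 0.37 (ZT0), 0.13 (ZT4), 0.42 (ZT8), 0.05 (ZT12), -0.08 (ZT16), 0.07 (ZT20) in the authors' deposited tables (difference -0.27 ± 0.06, adjusted p 0.0046). The thiolase gene Acaa2 was at -0.08 at ZT16 in the authors' deposited table, against 0.03 to 0.38 elsewhere (difference -0.27, adjusted p 0.0152). The dienoyl-CoA reductase gene Decr1 was at -0.04, against 0.02 to 0.27 in the authors' deposited tables (difference -0.18, adjusted p 0.0168). Acsl1 differed by -0.27 (adjusted p 0.00114), and Hadhb, Hadha, Etfdh, Acadvl and Eci2 by -0.20, -0.19, -0.18, -0.17 and -0.14. The members that passed against single times did so mainly against ZT0 and ZT8. Against ZT0 alone 15 members were lower, against ZT8 alone 13 and against ZT4 alone 1, while against ZT12 alone and ZT20 alone 0 members passed, with 1 and 6 of 22 under an unadjusted p of 0.05. By the test on ZT12 and ZT20 together 0 passed, with 6 under an unadjusted p of 0.05 and a median difference of -0.09. Without ZT0, or without ZT8, the 9 became 2.

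**Figure D4:**
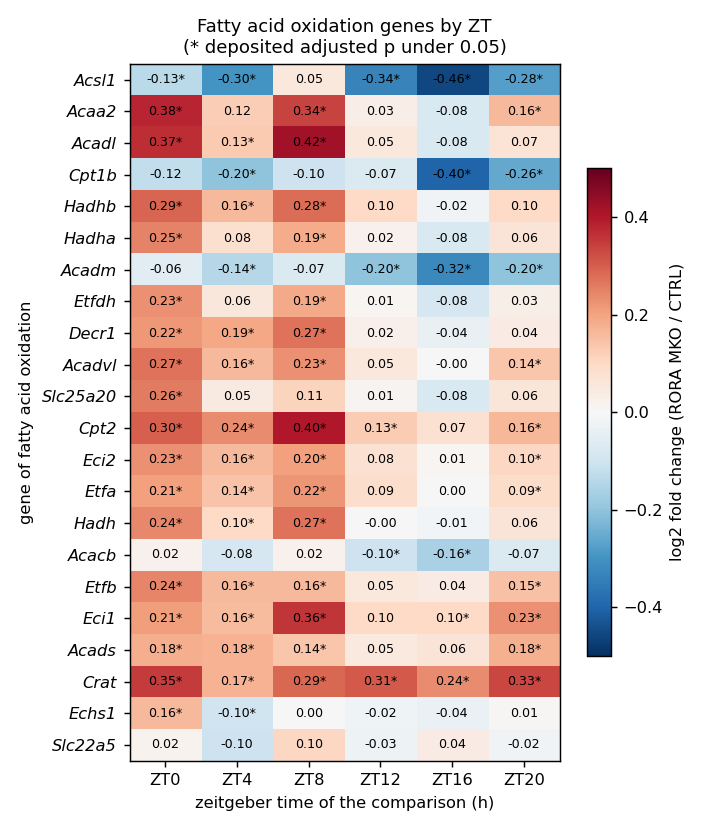
Log2 fold change of RORA MKO over RORA CTRL (colour and printed value, authors' deposited values) for 22 genes of fatty acid oxidation (vertical axis, in order of the ZT16 difference) by zeitgeber time (horizontal axis, h). The ZT0 and ZT8 columns are mostly positive, with medians of 0.23 and 0.2, and the ZT16 column lies around 0 with a median of -0.03.

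Some lipid droplet and fatty acid transport genes were likewise lower at ZT16 than at the other times. Of 20 PPAR targets of fasting, 3 rose and 4 fell at ZT16, beside 10.4% and 10.3% of all genes. In the difference 3 were lower and 0 higher, beside 0.744% and 0.498% of all genes, and 19 lay below 0, beside 49.7%. Of 21 genes of lipid uptake and storage, 7 rose and 3 fell at ZT16 and 4 were lower in the difference, beside the same shares of all genes. Plin5, the droplet coat protein that docks mitochondria, had log2 fold changes of 0.94 (ZT0), 0.75 (ZT4), 0.89 (ZT8), 0.12 (ZT12), 0.10 (ZT16), 0.68 (ZT20) in the authors' deposited tables (difference -0.51 ± 0.13, adjusted p 0.0164). Fabp3, the muscle fatty acid-binding protein gene, had log2 fold changes of 0.54 (ZT0), 0.43 (ZT4), 0.50 (ZT8), 0.08 (ZT12), -0.03 (ZT16), 0.30 (ZT20) in the authors' deposited tables (difference -0.36 ± 0.10, adjusted p 0.0261). Plin2, another droplet coat gene, was at -0.03, against 0.10 to 0.23, and Gpam, the first acyltransferase of triglyceride synthesis, at 0.12, against 0.25 to 0.64, in the authors' deposited tables. None of these 4 passed against ZT12 and ZT20 alone (adjusted p 0.13 to 0.909). Fabp3 overlaps genes on the other strand.

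Mitochondrial genes beyond fatty acid oxidation were mostly raised at ZT16. Of 29 nuclear-encoded oxidative phosphorylation genes, 24 rose and 0 fell at ZT16, and of 15 TCA cycle genes, 13 rose and 1 fell, beside 10.4% and 10.3% of all genes. The medians were 0.13 and 0.12 at ZT16 in the authors' deposited table, against 0.21 and 0.2 for the weighted mean of the other 5 ZT. The TCA cycle gene Suclg1 (0.12) and the complex I subunit gene Ndufa9 (0.10) were raised at ZT16 in the authors' deposited table, yet lower than at the other 5 ZT, with differences of -0.09 and -0.12 (adjusted p 0.0347 and 0.00797). Of 14 genes of pyruvate dehydrogenase and its kinases, 8 rose and 0 fell at ZT16 and 0 differed from the other ZT. Among them Pdk2, a kinase that inhibits the complex, stood at 0.33, and Dlat, its acetyltransferase subunit, at 0.18 in the authors' deposited ZT16 table.

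Among genes higher at ZT16, Nr4a3 had the largest difference under the limits used for naming. Its log2 fold changes were 0.13 (ZT0), 0.32 (ZT4), 0.59 (ZT8), 1.47 (ZT12), 2.47 (ZT16), 1.58 (ZT20) in the authors' deposited tables, so the effect grew through the day to ZT16 (difference 1.85 ± 0.34, adjusted p 5.49e-05). Against ZT12 and ZT20 alone it did not pass (0.93, adjusted p 0.437). Zfp503, a zinc-finger repressor, was called at ZT16 and at no other ZT. Its log2 fold changes were -0.01 (ZT0), -0.03 (ZT4), 0.09 (ZT8), 0.08 (ZT12), 0.94 (ZT16), 0.15 (ZT20) in the authors' deposited tables (difference 0.89 ± 0.15, adjusted p 1.76e-06), and it passed against the neighbouring times as well (0.83, adjusted p 0.000324). Mybph, a myosin-binding protein gene that overlaps Adora1 on the other strand, was at 1.25, against 0.01 (ZT12) to 1.05 (ZT20) in the authors' deposited tables. Its difference was 0.78 (adjusted p 0.00731), with an adjusted p of 0.00173 against the weighted mean of ZT12 and ZT20. Gse1, a chromatin cofactor gene, was at 0.38 at ZT16 in the authors' deposited table and called at no other ZT, against -0.11 to 0.10 elsewhere (difference 0.38 ± 0.06, adjusted p 3.3e-06).

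Smaller rises at other times were larger at ZT16 for several regulators. Dusp7, a phosphatase of ERK kinases, was at 0.77, against 0.05 to 0.56, and Noct (nocturnin), a rhythmic NADP(H) phosphatase, at 0.67, against 0.05 to 0.52, in the authors' deposited tables. Gamt, the last enzyme of creatine synthesis, was at 0.97, against 0.29 to 0.69, and the transcription factor gene Tfcp2l1 at 0.51, against 0.03 to 0.16, in the authors' deposited tables. Their differences lay between 0.42 and 0.49, with adjusted p between 0.00679 and 0.0218.

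Other genes counted as higher because a fall seen elsewhere was smaller or missing at ZT16. Gadd45g, a stress-response gene, had log2 fold changes of -1.40 (ZT0), -1.48 (ZT4), -0.66 (ZT8), -0.38 (ZT12), -0.18 (ZT16), -1.05 (ZT20) in the authors' deposited tables, called at every ZT but ZT16 (difference 0.85 ± 0.18, adjusted p 0.00074). The homeobox gene Six2 was at 0.02, against -0.45 to -0.25, and the pentraxin gene Ptx3 at -0.03, against -0.78 to -0.37, in the authors' deposited tables. Odf3l2 fell at every ZT, with log2 fold changes of -2.17 (ZT0), -2.25 (ZT4), -3.30 (ZT8), -2.57 (ZT12), -1.25 (ZT16), -1.25 (ZT20) in the authors' deposited tables (difference 0.89, adjusted p 0.000847).

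Fkbp5, which encodes a chaperone of the glucocorticoid receptor and is a standard marker of glucocorticoid action, had log2 fold changes of 0.62 (ZT0), 0.21 (ZT4), 0.12 (ZT8), 0.13 (ZT12), 0.83 (ZT16), 0.49 (ZT20) in the authors' deposited tables (difference 0.54 ± 0.15, adjusted p 0.0323). Of 23 glucocorticoid-responsive genes, 3 rose and 2 fell at ZT16, near the share of all genes called (20.7%), and Fkbp5 and Gadd45g were the 2 that differed from the other ZT, beside 1.24% of all genes. Tsc22d3 (GILZ) was at -0.0033, Per1 at -0.03 and Sgk1 at -0.04 in the authors' deposited ZT16 table, none of them called. Of 20 immediate early genes, 2 rose and 2 fell at ZT16, again near that share, and Nr4a3 was the 1 that differed.

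Of the 266 genes called at ZT16 and at no other ZT, 7 differed from the other ZT by the test, beside 1.24% of all genes. By the z values of the deposited p 26 of the 266 did, beside 304 of all 14253 genes. By either, a call at a single time was seldom a tested difference. Of 75 genes called at ZT16 with the other sign at another ZT, 18 passed, Rrad, Dach2, Tnfrsf19 and Neat1 among them. Of the 160 genes called in 1 direction at all other 5 ZT but not at ZT16 (82 up, 78 down), 40 passed, Arpp21, Gadd45g, Six2 and Ptx3 among them. These groups were picked by the same deposited values that the test uses, so their shares are descriptions.

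Of 7 further lists, 5 had no gene that differed, beside 1.24% of all genes in the difference and 10.4% up and 10.3% down at ZT16. At ZT16 the cytosolic ribosomal protein genes counted 0 up and 8 down of 24, excitation-contraction coupling 1 up and 11 down of 19, polyamine metabolism 2 up and 6 down of 12, and fast sarcomere genes 1 up and 4 down of 14. In the difference these lists had 0, 2 (Casq2 among them), 0 and 0 members. Odc1, the first enzyme of polyamine synthesis, was at -1.69 and Smox, which oxidises spermine, at -0.93 in the authors' deposited ZT16 table. The proteasome subunit gene Psmd8 was at -1.31, against -1.50 to -1.38 elsewhere in the authors' deposited tables (difference 0.14, adjusted p 0.113). Of 15 fatty acid synthesis genes, 2 rose and 3 fell at ZT16 and 0 differed, with Srebf1 at -0.66 and Me1 at -0.75 in the authors' deposited ZT16 table. Of 19 glycolysis genes, 7 rose and 4 fell and 1 differed, Pfkfb1, whose product makes the activator of phosphofructokinase (-0.12 at ZT16, against -0.14 to 0.25 elsewhere in the authors' deposited tables). Of 23 interferon and antigen presentation genes, 0 rose and 1 fell, and 0 differed.

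**Figure D5:**
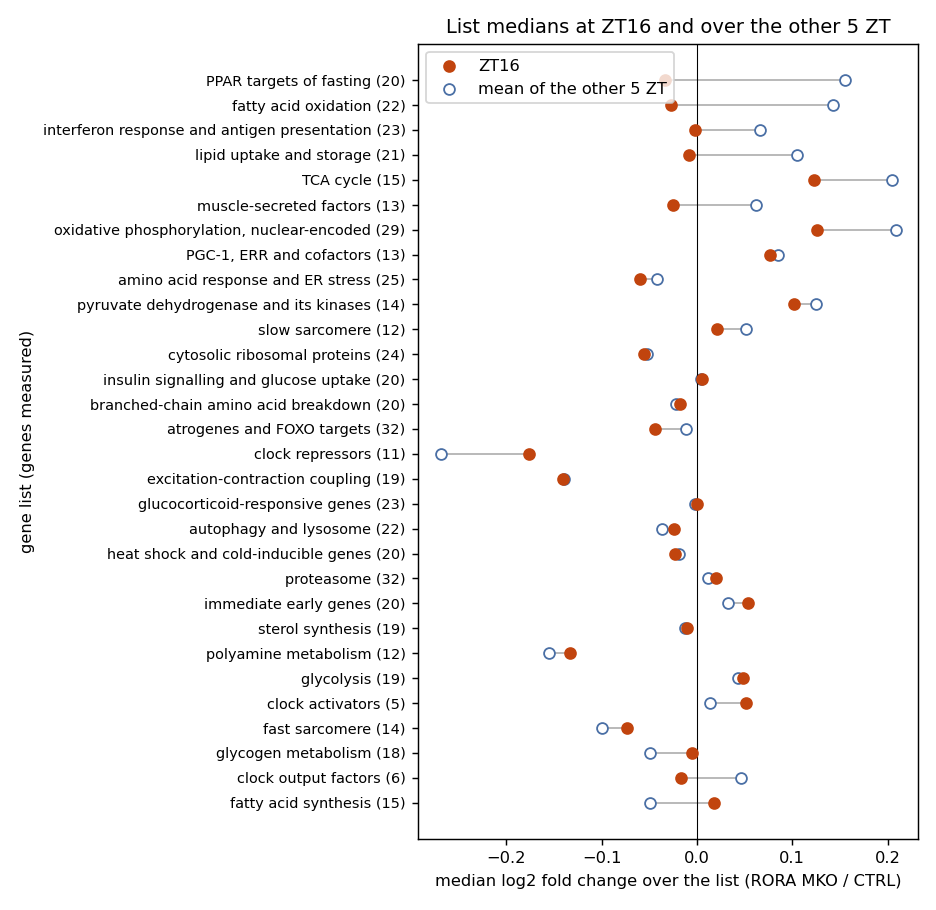
Median log2 fold change of RORA MKO over RORA CTRL (horizontal axis, authors' deposited values) at ZT16 (orange) and of the weighted mean of the other 5 ZT (open) for 30 pathway lists (vertical axis, number of measured genes in parentheses, in order of the median difference). The widest gaps with ZT16 on the left are those of PPAR targets and fatty acid oxidation, whose ZT16 medians are both -0.03.

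Markers of most other cell types had list medians close to 0 at ZT16. Des, in the smooth muscle and pericyte list, is also in the fibre list. Of 83 genes in 9 lists of cells other than muscle fibres and their precursors, 5 were called up and 3 down at ZT16 (9.64%), against 31.3% called at ZT0, 26.5% at ZT4, 39.8% at ZT8, 15.7% at ZT12 and 55.4% at ZT20 in the authors' deposited tables. Over all genes 20.7% were called at ZT16, and 28.1%, 29%, 27.8%, 22.1% and 32.2% at ZT0, ZT4, ZT8, ZT12 and ZT20. The markers were thus called less often than all genes at ZT4 and ZT12 as well as at ZT16. None of the 83 differed at ZT16 in the test, beside 1.24% of all genes. At each other ZT 1 to 5 did, beside 0.786% to 4.85% of all genes. The difference lay below 0 for 11 of 12 endothelial, 14 of 16 fibroblast and 11 of 12 macrophage and leukocyte genes. The same held for 9 of 10 Schwann cell, 8 of 9 smooth muscle and pericyte and 4 of 4 red blood cell genes. Brown adipocyte genes counted 4 of 5, white adipocyte genes 3 of 8 and tendon genes 1 of 7, beside 49.7% of all genes. None of the 10 Schwann cell and 8 white adipocyte genes was called at ZT16, against 10 and 7 called up at ZT20, where 16.6% of all genes were. At ZT12 0 Schwann cell genes and 1 white adipocyte gene were called. The list medians at ZT16 in the authors' deposited table were 0.05 for 12 endothelial genes, 0.02 for 10 Schwann cell genes and -0.0067 for 8 white adipocyte genes. They were -0.0055 for 4 red blood cell genes, -0.03 for 16 fibroblast genes and -0.05 for 12 macrophage and leukocyte genes. The median of 5 brown adipocyte genes lay furthest from 0, at 0.11. At the other 5 ZT the medians of Schwann cell genes ran between -0.30 and 0.74 in the authors' deposited tables. Those of white adipocyte genes ran between -0.50 and 0.44 there, so other cell types move with the times that ZT16 is compared with. The part of these markers in the counts above was not tested.

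A very abundant transcript without a deposited symbol, ENSMUSG00000119584, had a mean normalized count of 92344 and was called at ZT16 alone. Its log2 fold changes were 0.06 (ZT0), 0.08 (ZT4), 0.03 (ZT8), -0.13 (ZT12), 0.62 (ZT16), 0.07 (ZT20) in the authors' deposited tables (difference 0.59 ± 0.09, adjusted p 1.45e-06). Neat1, a nuclear long non-coding RNA, was at -0.45 at ZT16, against -0.10 to 0.18 in the authors' deposited tables (difference -0.48 ± 0.10, adjusted p 0.00114). Malat1, its genomic neighbour, was at -0.03 at ZT16 in the authors' deposited table and did not differ (adjusted p 0.758). It was chosen after its values were seen.

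In PER2 muscle at the same time few genes were called, over the whole table as among the genes that set ZT16 apart. The shares were not compared by a test, so the counts below do not show a lack of overlap. In the authors' deposited PER2 ZT16 table, 105 of 12952 genes were called. Of the 177 genes, 161 are listed there and 3 were called, Fgd4 (0.79), Neu2 (1.68) and Syne1 (0.48), with the direction of that table not stated in the sources used here.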

How the data were processed

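RNA of mouse muscle was measured in 6 RORA libraries at ZT16 and 30 at the other 5 ZT. Per the labels' protocols, poly-A libraries were made with a stranded kit from total RNA. Tools listed without a role in the submitters' processing notes are STAR, DESeq2, Trimmomatic, bcl2fastq 2.20.0.422, R 4.1 and MultiQC. The same notes list mm9 and GRCm39 as builds. The counter, its use of strand and the build behind each table are not stated there. Each RORA table is the authors' own comparison, RORA MKO over RORA CTRL, after a filter of 10 reads in 3 samples per the labels' sample descriptions. Per the file headers it holds a mean normalized count (a signal level, the same in all 6 tables), a log2 fold change, the error of that value and a p-value, raw and adjusted. The PER2 ZT16 table holds p-values, a likelihood ratio score, a log2 fold change and a log2 CPM level as the authors deposited them. It is used for 1 comparison, and the other PER2 tables were not used here.

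The design assumed tests on counts per library where those were given. The tables give comparisons, so the tests for such tables were used and depth is unknown. Divided by its error, the deposited log2 fold change was 0.721 times the z of the p at ZT16 (median) and 0.741 to 0.841 times at the others, as with shrunken fold changes. Sizes may be understated, and differences between ZT stretched or narrowed. The deposited log2 fold changes rest on 3 mice a group at each ZT. Whether the spread behind the deposited errors and p was estimated within each ZT or over all RORA libraries is not stated in the sources at hand. The limma p measures the spread of a gene's log2 fold changes among the ZT compared with, not the spread between mice.

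Calls at a ZT used the deposited adjusted p under 0.05. The difference is the ZT16 value minus the inverse-variance weighted mean of the other 5, over the root of the summed squared errors. Errors of different ZT were taken as independent. Alternatives were z values of the deposited p, a plain mean, limma 3.58.1 (R 4.3.3), ZT12 and ZT20 alone, leaving out each ZT, a minimum mean count of 50 and median centring. The difference test was tested on simulated data. Python 3.11.15, NumPy 2.4.6, pandas 2.3.3, SciPy 1.17.1 and matplotlib 3.10.9 were used.

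Of the 14253 genes, 13339 carried a deposited symbol, 893 were named through GENCODE M21 and 21 stayed without one. The 44 gene lists (32 of pathways, 12 of cell types), the members and the naming rule were chosen with earlier results of these data known. The naming rule takes Rora and the clock genes, the 10 highest and 10 lowest calls at ZT16, and the 12 highest and 12 lowest differences outside the range of the other 5. These need a mean count of at least 50 and no predicted gene name. It adds the 6 highest and 6 lowest differences among genes called at ZT16 alone, up to 6 with the other sign at another ZT, and up to 4 and then 2 members per list. It took 113 genes, and 12 of them overlap an exon of a listed gene on the other strand, which makes their counts uncertain. Of the cell type lists, satellite cell and myoblast genes had 1 up and 1 down of 8 at ZT16, denervated fibre and neuromuscular junction genes 2 and 2 of 11, smooth muscle and pericyte genes 0 and 0 of 9, tendon genes 1 and 1 of 7 and brown adipocyte genes 2 and 0 of 5, and none of their genes differed from the other ZT. Results for a few named genes are not reported here; the totals include them.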

Additional observations from a re-analysis of the deposited data

Results flagged for a closer look

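The genes below are taken by the naming rule, and their RORA MKO effect at ZT16 differed from the mean of the other 5 ZT by the test of the difference itself. Values are the ZT16 log2 fold change minus that mean. No group has 4 or more libraries with values of their own, so single libraries could not be examined.

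Among genes with a lower effect at ZT16, those with the widest gaps were Rrad (-1.08), Arntl (-1.01), Dach2 (-0.92), Lingo3 (-0.77), Klhl38 (-0.76), Arpp21 (-0.73), Fbxo32 (-0.62), Tnfrsf19 (-0.61), Tmem100 (-0.56) and Plxna4 (-0.54). They were followed by Efr3b (-0.52), Plin5 (-0.51), Eda2r (-0.51), Neat1 (-0.48), Barx2 (-0.47), Casq2 (-0.44), Tbc1d1 (-0.38), Fabp3 (-0.36), Trim63 (-0.35) and Mybpc1 (-0.34). Smaller gaps were seen for Sesn1 (-0.28), Acsl1 (-0.27), Acaa2 (-0.27), Acadl (-0.27), Gpam (-0.25), Plin2 (-0.20), Decr1 (-0.18), Pfkfb1 (-0.17), Ndufa9 (-0.12) and Suclg1 (-0.093).

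Genes with a higher effect at ZT16 included Nr4a3 (1.85), Odf3l2 (0.89), Zfp503 (0.89), Gadd45g (0.85), Mybph (0.78), ENSMUSG00000119584 (0.59), Fkbp5 (0.54) and Dusp7 (0.49), as well as Ptx3 (0.47), Gamt (0.46), Noct (0.46), Tfcp2l1 (0.42), Six2 (0.39) and Gse1 (0.38). By the same contrast on z values of the deposited p, 38 of the 46 named genes that differed passed, and against ZT12 and ZT20 alone 12 passed.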

How the results depend on the processing

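No paired analysis was possible because the tables hold comparisons, not values per library, and the numbers in the titles are running numbers. For the same reason leaving out single libraries, other normalizations and count tests were not run.

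At ZT16, 1774 genes passed when the p was taken from the log2 fold change over its error, and 1776 when values were also centred on their median, against 2947 by the deposited adjusted p. The 177 genes that differed at ZT16 became 304 by z values of the deposited p, 0 by limma (473 under an unadjusted p of 0.05) and 56 against ZT12 and ZT20 alone. Against single times, an alternative chosen after seeing the data, they numbered 333 (ZT0), 452 (ZT4), 375 (ZT8), 54 (ZT12) and 88 (ZT20). For the other times, the z values gave 536 genes at ZT0, 1085 at ZT4, 189 at ZT12 and 486 at ZT20. Limma gave 17 at ZT0, 72 at ZT4, 11 at ZT8, 0 at ZT12 (480 under an unadjusted p of 0.05) and 40 at ZT20.

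Members of pathway lists that differed at ZT16 numbered 30, and became 49 by z values, 0 by limma, 9 against ZT12 and ZT20 alone and 16 without ZT8. Fatty acid oxidation genes that differed numbered 9, and became 0 by limma, 0 against ZT12 and ZT20 alone, 2 without ZT0 and 2 without ZT8. By single time they numbered 15 against ZT0, 1 against ZT4, 0 against ZT12 and 0 against ZT20. The 4 members of the atrogene list that differed, all lower at ZT16, became 0 by limma. Under every other setting run, between 3 and 6 members of the list passed, counted in either direction. Against ZT20 alone 2 were lower and 1 higher, and against ZT8 alone 3 were lower and 1 higher. The causes of these shifts were not tested.

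Of the 46 named genes that differed, 8 lost the call by z values, 1 by a plain mean, 46 by limma and 34 against ZT12 and ZT20 alone. Without ZT0, ZT4, ZT8, ZT12 and ZT20 in turn, 13, 7, 11, 3 and 1 lost it. No value changed sign under the settings run.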

Other observations

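Several genes outside the naming rule, chosen after their values were seen, are given here as single genes, and no gene group was tested. Among the 106 lower ones, Pex11a, which helps peroxisomes divide, was at 0.14 at ZT16 in the authors' deposited table, 0.27 at ZT12 and ZT20 and 0.47 to 0.62 at ZT0, ZT4 and ZT8 (difference -0.29, adjusted p 0.0152). The bifunctional oxidation enzyme gene Hsd17b4 had log2 fold changes of 0.28 (ZT0), 0.15 (ZT4), 0.37 (ZT8), 0.18 (ZT12), 0.01 (ZT16), 0.22 (ZT20) in the authors' deposited tables (difference -0.23, adjusted p 0.00176). The catalase gene Cat differed by -0.28, Ephx2 by -0.28 and Ech1 by -0.22, with adjusted p of 0.0332, 0.00943 and 0.0454. Ak4, a mitochondrial adenylate kinase gene, had log2 fold changes of 1.15 (ZT0), 1.51 (ZT4), 0.83 (ZT8), 0.46 (ZT12), 0.12 (ZT16), 0.67 (ZT20) in the authors' deposited tables (difference -0.86 ± 0.17, adjusted p 0.000339).

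Of the splicing factor genes looked at, Srsf2, Srsf5 and Srsf6 differed by 0.15, 0.19 and 0.20 (adjusted p 0.0261, 0.00169 and 0.00162), while Srsf1, Srsf3 and Srsf7 did not pass (0.08, 0.04 and 0.03). In the authors' deposited ZT16 table Srsf6 was at 0.16 and Srsf5 at 0.03. The calmodulin gene Calm3 differed by 0.16 (adjusted p 0.00377). Calm4 was at -0.46 at ZT16, against -4.37 to -2.81 elsewhere in the authors' deposited tables, and differed by 2.96 ± 0.76 (adjusted p 0.0172). Calm4 has a mean normalized count of 3.87 in the authors' deposited tables and did not pass by the z values of the deposited p (adjusted p 0.264). Mir6236 and Lars2 were at 0.41 and 0.30 at ZT16 in the authors' deposited table and at 0.36 and 0.38 at ZT4, and differed by 0.37 and 0.27 (adjusted p 0.00679 and 0.00231).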
